A study of Mus musculus with 6 samples.

Results

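The genes described here are 10 enzymes, or partners of enzymes, that make or break down prostaglandins and leukotrienes: Ptgs1, Ptgs2, Ptges, Ptgds, Ptgis, Hpgd, Alox5, Alox5ap, Lta4h and Alox15. They were taken by name and not by a cut on their measured levels, but earlier results of these data were known when they were chosen. Every array probe whose RefSeq accession belongs to one of these symbols was used. That gave 12 probes of the 55681 distinct non-control probes on the array, and 10 genes of the 20145 genes with a probe. All 10 genes passed the filter on dim probes and were among the 16408 genes tested, and all 12 probes were well above background on all 6 arrays.

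RNA came from skin wounds on day 3 in male C57/BL6 mice, 3 of them FoxO1 +/- and 3 wild type (WT), each measured on its own 1-colour Agilent array. Every mouse carried 4 full-thickness back wounds made by a 4 mm biopsy punch, and a 6 mm punch was used to collect them, so that healing tissue and a rim of skin were both sampled. No treatment apart from injury is listed for the samples of either genotype, and no unwounded skin is among them. The labels name no Cre or tissue promoter for the FoxO1 +/- animals, which hold 1 altered and 1 intact copy of the gene. The way the allele was made, the age of the mice and whether the wounds of an animal were pooled are not given in the sources used here. Each array was taken as 1 animal, and p-values measure only the spread between these arrays.

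Levels are log2 processed signal relative to the 75th percentile of the array, so a level of 0 lies at that percentile and 1 unit is a 2-fold step. A level is compared only with the level of the same probe on other arrays, because probes differ in how well they bind. Foxo1 itself, read by 2 probes, had 1.55, 1.69 and 1.49 on the FoxO1 +/- arrays and 2.04, 1.81 and 2.32 on the WT arrays with the brighter probe, and 0.38, 0.50 and 0.30 against 1.31, 1.04 and 1.51 with the dimmer one. The genotypes did not overlap on either probe, with log2 differences of -0.48 (SE 0.14) and -0.89 (SE 0.14), FoxO1 +/- minus WT, although neither passed the limma adjusted threshold (adjusted p = 0.649 over genes and 0.187 over probes). Where these probes lie relative to the altered part of the gene was not given. Keratinocyte markers (6 of 6) and fibroblast markers (5 of 5) were well above background on all 6 arrays. FoxO1 +/- replicate 3 had the lowest share of spots well above background, 64.3%, while the other 5 arrays lay between 70.1% and 71.9%.

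Prostaglandins and leukotrienes are short-lived signalling lipids made from arachidonic acid, which phospholipases release from membranes. Cyclooxygenases, encoded by Ptgs1 and Ptgs2, convert it to prostaglandin H2, and terminal synthases then turn that intermediate into prostaglandin E2, prostaglandin D2 or prostacyclin. In the other branch, 5-lipoxygenase and its activating protein make leukotriene A4, which Lta4h turns into leukotriene B4, a strong attractant of neutrophils. In wounded skin these lipids are known for their part in vessel dilation, pain, leukocyte entry and the later winding down of inflammation.

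No enzyme of the 10 differed between FoxO1 +/- and WT wounds beyond the spread between animals. With limma, 0 of the 10 genes passed an adjusted p of 0.05 (1 of all 16408 genes did, 0.00609%, the vomeronasal receptor gene Vmn1r227, named after its value was seen), and 0 of 10 had an unadjusted p under 0.05 (1032 of 16408, 6.29%). In 0 of 10 genes did the 3 FoxO1 +/- arrays all lie on one side of the 3 WT arrays, which was so for 1895 of 16408 genes (11.5%). Of the 10 genes, 4 had a higher mean in FoxO1 +/- wounds and 6 a lower one, and their median log2 difference was -0.0071, beside a median of 0.012 over all genes tested, of which 53.9% were higher. With quantile scaling in place of the percentile, Ptges and Alox5ap, both higher here, were at -0.047 and -0.00063. In whole wounds, fewer cells of a type and less RNA per cell cannot be told apart, and this holds for every level below.

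How far a difference is bounded varied among the enzymes. The 95% interval of the difference lay inside a 2-fold change in either direction for 7 of the 10 genes (91.1% of all genes tested), the exceptions being Ptgs2, Ptgds and Alox15. It lay inside a 1.5-fold change for 6 of the 10 (74.5% of all genes), since Ptgis also fell outside that range. These are the 4 genes whose levels varied most between animals of one genotype.

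**Figure D1:**
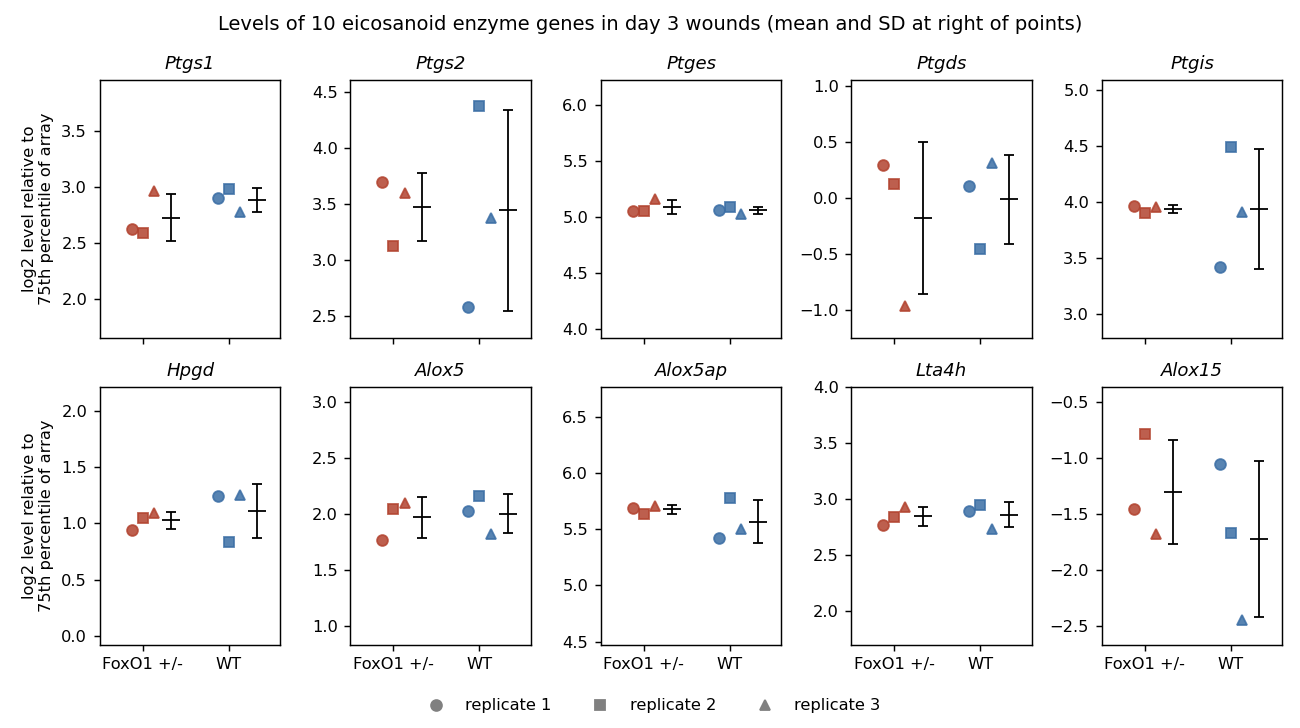
Levels of the 10 enzyme genes on each array, as log2 processed signal relative to the array's 75th percentile, with FoxO1 +/- (red) left of WT (blue), symbols for replicates 1 to 3, and the mean with its SD to the right of each group's points (n = 3 each). All panels span the same number of log2 units, and in each of them the points of the FoxO1 +/- and WT arrays overlap; Ptgs2, Ptgds, Ptgis and Alox15 are the spread-out ones.

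The promoters of Ptgs2 and Ptges are shown here, since their enzymes act in sequence. By the brightest probe of each gene, they varied most and least of the 10 between animals of a genotype. The second Ptges probe varied more than its brighter one, with SDs of 0.19 in FoxO1 +/- wounds and 0.11 in WT wounds. RefSeq promoter windows of build GRCm38.p6 run from 250 bases before to 50 bases after the annotated gene start, and 7 of the 10 genes had one. The window of Hpgd is the third shown because it holds a match to the TATA box motif. The Ptgs2 window is chr1:150099781-150100080 on the plus strand, that of Ptges is chr2:30903248-30903547 on the minus strand and that of Hpgd is chr8:56294302-56294601 on the plus strand. Each is written 5′ to 3′ along its gene, with matches to the searched motifs in capitals.
Ptgs2: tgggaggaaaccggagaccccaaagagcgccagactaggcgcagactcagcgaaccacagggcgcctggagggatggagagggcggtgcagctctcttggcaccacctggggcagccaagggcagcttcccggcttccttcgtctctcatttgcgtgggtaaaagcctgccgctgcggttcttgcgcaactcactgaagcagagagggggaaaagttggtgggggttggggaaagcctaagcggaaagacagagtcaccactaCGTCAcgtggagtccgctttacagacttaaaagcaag
Ptges: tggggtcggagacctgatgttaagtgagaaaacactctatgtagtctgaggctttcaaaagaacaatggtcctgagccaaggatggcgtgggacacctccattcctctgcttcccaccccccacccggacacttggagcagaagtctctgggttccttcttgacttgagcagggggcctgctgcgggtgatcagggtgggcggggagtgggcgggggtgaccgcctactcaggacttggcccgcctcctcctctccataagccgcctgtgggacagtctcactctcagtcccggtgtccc
Hpgd: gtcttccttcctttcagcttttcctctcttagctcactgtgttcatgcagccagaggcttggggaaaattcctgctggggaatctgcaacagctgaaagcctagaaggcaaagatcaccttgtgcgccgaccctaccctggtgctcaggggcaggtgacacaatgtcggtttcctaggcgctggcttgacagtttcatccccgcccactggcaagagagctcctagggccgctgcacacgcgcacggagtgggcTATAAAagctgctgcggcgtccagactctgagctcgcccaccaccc
The capitals in Ptgs2 mark CGTCA, the minus-strand form of TGACG, the core of the cyclic AMP response element. It begins at base 14 after the annotated start. The capitals in Hpgd mark TATAAA, the TATA box motif, which begins at base 5 after the annotated start. Because both matches lie after the annotated start and not before it, each is given only as a match of letters. Whether transcription in these wounds begins at the annotated start was not tested. Each motif was sought on both strands, and none of the matches shown overlaps another. The TGACG core was found in 1 of the 7 windows, against 20.8% of the 32851 mouse windows in the table, and TATAAA in 1 of 7, against 13.6%. The FoxO motif GTAAACA was in 0 of the 7 windows (3.65% of all windows). The string GGGNNTTCC, searched for NF-kappaB, was in 0 of 7 (5.82%), and longer forms of the NF-kappaB motif were not searched. These counts describe letters in a short window and say nothing of whether a factor acts on the gene.

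Ptgs1 encodes cyclooxygenase 1, the constitutive enzyme of platelets and many resting cells. It had 2.62, 2.60 and 2.97 on the FoxO1 +/- arrays and 2.91, 2.98 and 2.77 on the WT arrays. FoxO1 +/- replicates 1 and 2 were below every WT array, but FoxO1 +/- replicate 3 sat with the upper WT values, so the groups overlapped. The means were 2.73 ± 0.21 and 2.89 ± 0.10 (SD, n = 3 each), a log2 difference of -0.16 (SE 0.12, 95% interval -0.46 to 0.15, limma adjusted p = 0.913). The platelet marker list, 5 of 5 genes tested and all well above background on all 6 arrays, had mean levels of 0.13, 0.22 and 0.77 on the FoxO1 +/- arrays and 0.0021, 0.66 and 0.16 on the WT arrays. Within each genotype it was thus highest on the same array as Ptgs1, FoxO1 +/- replicate 3 and WT replicate 2, and so was the neutrophil marker list described with Ptgs2 below. Its summed linear level ran between 198 and 263 in FoxO1 +/- wounds and between 152 and 252 in WT wounds, and its part in the Ptgs1 values was not tested.

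Ptgs2 encodes cyclooxygenase 2, the inducible enzyme that inflammatory stimuli switch on in macrophages, neutrophils, fibroblasts and keratinocytes. Its levels were 3.70, 3.12 and 3.60 on the FoxO1 +/- arrays and 2.58, 4.37 and 3.37 on the WT arrays. The lowest and the highest of the 6 wounds were both WT, and the FoxO1 +/- wounds lay between them. The means were 3.47 ± 0.31 and 3.44 ± 0.90 (SD, n = 3 each), a log2 difference of 0.031 (SE 0.45, 95% interval -1.06 to 1.12, limma adjusted p = 0.998).

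Ptgs2 levels were widely spread between the arrays of a genotype. The highest FoxO1 +/- array exceeded the lowest by 1.49-fold, and the highest WT array exceeded the lowest by 3.45-fold. The within-genotype SD of Ptgs2, 0.67 log2 units, was at least as large as that of 97.7% of the genes tested, whose median was 0.14. The Ptgs2 probe is printed 10 times on each array, of which 9 spots on FoxO1 +/- replicate 2 and all 10 on the other arrays were used, and the SD of its spots within an array was 0.073 to 0.096. That SD covers printing and hybridisation, and not the sampling of the wound, the RNA or the labelling. Single animals decided the sign of the genotype difference, which was -0.40 without WT replicate 1 and 0.50 without WT replicate 2. How often spreads of the 2 genotypes would differ this much was not tested.

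Some genes of leukocytes were lowest and highest on the same arrays. By the smallest distance between centred profiles over the 6 arrays, the pathway gene most like Ptgs2 was Cyp4f18, which encodes a leukotriene B4 hydroxylase of neutrophils (root mean square distance 0.22, against a spread of Ptgs2 itself of 0.55), and the next was Fpr2, a lipoxin A4 and formyl peptide receptor (0.25). Cyp4f18 had 5.27, 5.16 and 5.38 on the FoxO1 +/- arrays and 4.58, 5.77 and 5.11 on the WT arrays, and Fpr2 had 2.56, 2.52 and 2.83 against 1.73, 3.00 and 2.41. Both were lowest on WT replicate 1 and highest on WT replicate 2, like Ptgs2. The neutrophil marker list (5 of 6 genes tested, Ly6g having no matched probe) had mean levels of 4.97, 4.81 and 5.13 in FoxO1 +/- wounds and 4.51, 5.34 and 4.92 in WT wounds. Its summed linear level ran between 541 and 750 in FoxO1 +/- wounds and between 527 and 734 in WT wounds, and all 5 of its tested genes were well above background on all 6 arrays. Among the WT arrays all 5 were highest on replicate 2 and 4 were lowest on replicate 1, while over all 6 arrays 3 were highest on WT replicate 2 and 3 lowest on WT replicate 1; S100a9, for example, was highest on FoxO1 +/- replicate 3 and lowest on WT replicate 3.

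The monocyte and macrophage markers were split. Cd14, the lipopolysaccharide co-receptor, had 6.35, 6.06 and 6.45 in FoxO1 +/- wounds and 5.34, 7.01 and 6.18 in WT wounds, and was the 1 gene of its list with the highest of the 6 values on WT replicate 2. Adgre1, a macrophage surface receptor, had 4.75, 4.55 and 4.28 in FoxO1 +/- wounds and 4.39, 4.19 and 4.26 in WT wounds, and Mrc1, the mannose receptor, had 4.84, 5.26 and 4.90 against 4.89, 4.78 and 4.90. Both were thus lowest on WT replicate 2, where Ptgs2 was highest, and Csf1r hardly varied among the WT arrays, at 7.14, 7.14 and 7.13. Lyz2, a lysozyme gene, read 5.09, 5.24 and 5.35 in FoxO1 +/- wounds and 4.93, 5.09 and 4.90 in WT wounds. The list (5 of 6 tested, Cd68 having no matched probe) summed to 312 to 331 in FoxO1 +/- wounds and 262 to 349 in WT wounds. The part of these cells in the Ptgs2 values was not tested.

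Ptgis, on chromosome 2, encodes prostacyclin synthase, which vessel walls and fibroblasts use to make a vasodilator that restrains platelets. It had 3.97, 3.90 and 3.96 on the FoxO1 +/- arrays and 3.43, 4.49 and 3.91 on the WT arrays. The 3 FoxO1 +/- wounds were nearly alike, whereas WT replicate 1 was the lowest of the 6 and WT replicate 2 the highest, the same animals as for Ptgs2. The means were 3.94 ± 0.037 and 3.94 ± 0.53 (SD, n = 3 each), and the log2 difference was -0.00055 (SE 0.26, 95% interval -0.63 to 0.63, limma adjusted p = 1.00). The highest array exceeded the lowest by 1.05-fold in FoxO1 +/- wounds and by 2.09-fold in WT wounds. Without WT replicate 1 the difference was -0.26, and without WT replicate 2 it was 0.27. The nearest pathway gene was again Cyp4f18 (distance 0.086, own spread of Ptgis 0.31), followed by the prostaglandin E2 receptor gene Ptger2 (0.099), which had -0.66, -0.49 and -0.61 in FoxO1 +/- wounds and -1.01, -0.16 and -0.57 in WT wounds. The endothelial list had mean levels of 1.00, 1.11 and 1.17 in FoxO1 +/- wounds and 0.92, 0.89 and 1.00 in WT wounds. The fibroblast list had 6.60, 6.70 and 6.69 against 6.55, 6.64 and 6.60. Among WT arrays, replicate 2 thus had the lowest endothelial mean and the highest fibroblast mean. The smooth muscle and pericyte mean, given with Ptgds below, was lowest there too. The part of these cells in the Ptgis values was not tested.

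**Figure D2:**
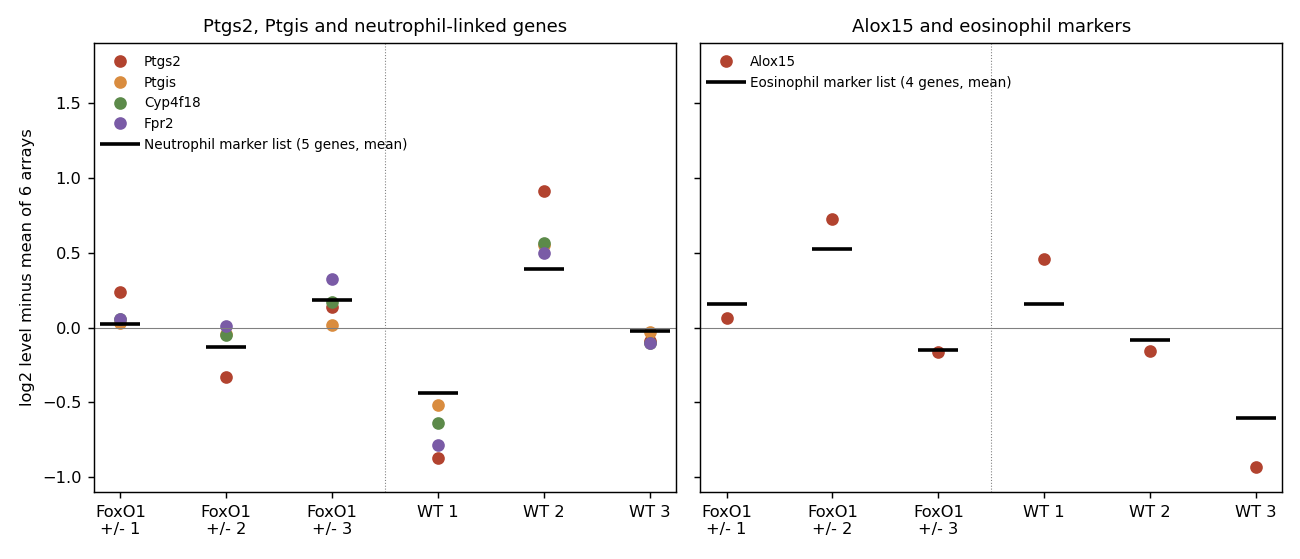
Left, log2 level minus the mean of the 6 arrays for Ptgs2, Ptgis, Cyp4f18 and Fpr2 (points) and for the mean of 5 neutrophil markers (black bars); right, the same for Alox15 and the mean of 4 eosinophil markers. The 3 FoxO1 +/- arrays stand left of the dotted line and the 3 WT arrays right of it; WT replicate 1 is lowest and WT replicate 2 highest for every series on the left, and on the right Alox15 and the eosinophil mean keep the same order of arrays within each genotype.

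Ptges encodes microsomal prostaglandin E synthase 1, the inducible synthase that is coupled to cyclooxygenase 2 in inflammation. Its brighter probe gave 5.06, 5.05 and 5.16 on the FoxO1 +/- arrays and 5.06, 5.09 and 5.03 on the WT arrays. All 6 wounds thus lay within a narrow band, and the groups overlapped. The means were 5.09 ± 0.062 and 5.06 ± 0.031 (SD, n = 3 each), a log2 difference of 0.032 (SE 0.069, 95% interval -0.14 to 0.20, limma adjusted p = 0.991). Its within-genotype SD of 0.049 was among the smallest, with 5.84% of the genes tested at or below it. The second Ptges probe was much nearer the percentile, with 0.81, 0.67 and 1.04 in FoxO1 +/- wounds and 0.83, 0.95 and 0.73 in WT wounds, and gave a difference of 0.0089 (SE 0.12). Ptges therefore did not share the range of Ptgs2: on WT replicates 1 and 2, whose Ptgs2 levels were the extremes, its brighter probe read 5.06 and 5.09.

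Ptgds encodes lipocalin-type prostaglandin D synthase, which also binds small lipophilic molecules outside cells. It had 0.30, 0.13 and -0.96 on the FoxO1 +/- arrays and 0.11, -0.46 and 0.31 on the WT arrays. FoxO1 +/- replicate 3 was the lowest and WT replicate 2 the next, while the other 4 wounds lay close together. The means were -0.18 ± 0.68 and -0.013 ± 0.40 (SD, n = 3 each), a log2 difference of -0.17 (SE 0.37, 95% interval -1.08 to 0.74, limma adjusted p = 0.991). The sign rested on FoxO1 +/- replicate 3, since the difference was 0.22 without it, and it was 0.31 within the slide row that holds FoxO1 +/- replicate 1 and the 3 WT arrays. The within-genotype SD was 0.56, at least as large as that of 95.9% of the genes tested.

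Marker lists for mast cells, melanocytes, smooth muscle and sebaceous gland were lowest in mean level on the same arrays as Ptgds. Within each genotype these were FoxO1 +/- replicate 3 and WT replicate 2. The mast cell list (5 of 6 tested, Ms4a2 not above background) summed to 23.8, 27.4 and 17.7 in FoxO1 +/- wounds and to 22.9, 14.7 and 22.7 in WT wounds, in linear units of the 75th percentile. The melanocyte list (4 of 4 tested) summed to 2.43, 2.58 and 1.54 in FoxO1 +/- wounds and to 4.65, 2.12 and 6.59 in WT wounds. The smooth muscle and pericyte list (5 of 5 tested) had mean levels of 1.66, 1.80 and 1.40 in FoxO1 +/- wounds and 1.85, 1.47 and 1.79 in WT wounds. It summed to 41.8, 42.2 and 38.9 in FoxO1 +/- wounds and to 43.1, 40.5 and 38.3 in WT wounds. By that sum its lowest WT array was replicate 3 and not replicate 2. The sebaceous list (5 of 5 tested) had mean levels of 1.503, 1.61 and 1.47 in FoxO1 +/- wounds and 2.20, 1.86 and 2.33 in WT wounds. Its summed linear level was lowest of the FoxO1 +/- arrays on replicate 1 (53.9), against 62.6 on replicate 3. Of its 5 genes, 2 were lowest on FoxO1 +/- replicate 3 and 3 on WT replicate 2, within their genotype. Not every gene followed its list. Of the 5 mast cell genes, 4 were lowest of the FoxO1 +/- arrays on replicate 3, and Tpsb2, a mast cell tryptase gene, was highest there (0.75). In the smooth muscle list, Acta2 was highest of the FoxO1 +/- arrays on replicate 3 (4.98) and lowest of the WT arrays on replicate 3 (4.68). The part of these cells in the Ptgds values was not tested. By distance between profiles the pathway gene most like Ptgds was Ggt5, a gamma-glutamyl transferase that converts leukotriene C4 to D4, but the distance of 0.34 was not much below the spread of Ptgds itself, 0.46.

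Hpgd encodes 15-hydroxyprostaglandin dehydrogenase, which starts the breakdown of prostaglandin E2 and related prostaglandins. It had 0.95, 1.05 and 1.09 on the FoxO1 +/- arrays and 1.25, 0.83 and 1.26 on the WT arrays. WT replicate 2, the wound with the highest Ptgs2, had the lowest Hpgd, and the other WT arrays lay above all FoxO1 +/- arrays. The means were 1.03 ± 0.075 and 1.11 ± 0.24 (SD, n = 3 each), a log2 difference of -0.083 (SE 0.13, 95% interval -0.41 to 0.24, limma adjusted p = 0.987). The second Hpgd probe gave -0.04, 0.19 and 0.12 in FoxO1 +/- wounds and 0.40, -0.08 and 0.32 in WT wounds, with a difference of -0.13 (SE 0.15). Both probes were thus lowest on WT replicate 2 among the WT arrays, and the difference was -0.22 without that array. Of the pathway genes, Abcc4, a prostaglandin exporter, had the profile nearest to Hpgd (distance 0.098, own spread of Hpgd 0.15).

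In the leukotriene branch, Alox5 encodes 5-lipoxygenase of neutrophils, mast cells and macrophages. It had 1.77, 2.05 and 2.10 on the FoxO1 +/- arrays and 2.03, 2.16 and 1.82 on the WT arrays. The lowest and the next lowest values came from different genotypes, FoxO1 +/- replicate 1 and WT replicate 3. The means were 1.97 ± 0.18 and 2.005 ± 0.17 (SD, n = 3 each), a log2 difference of -0.034 (SE 0.13, 95% interval -0.35 to 0.29, limma adjusted p = 0.995).

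Alox5ap encodes the membrane protein that presents arachidonic acid to 5-lipoxygenase. It had 5.69, 5.63 and 5.71 on the FoxO1 +/- arrays and 5.42, 5.78 and 5.50 on the WT arrays. The FoxO1 +/- wounds again lay close together between WT replicate 2 above and WT replicates 1 and 3 below. The means were 5.68 ± 0.040 and 5.57 ± 0.19 (SD, n = 3 each), a log2 difference of 0.11 (SE 0.11, 95% interval -0.16 to 0.38, limma adjusted p = 0.946). Without WT replicate 2 it was 0.22, with a limma adjusted p of 0.481. The nearest pathway profile was that of Pla2g7, the secreted platelet-activating factor hydrolase (distance 0.058, own spread of Alox5ap 0.12).

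Lta4h encodes leukotriene A4 hydrolase, which completes leukotriene B4 and also cleaves peptides. Its levels were 2.77, 2.84 and 2.93 in FoxO1 +/- wounds and 2.90, 2.95 and 2.74 in WT wounds, an overlapping and tight set. The means were 2.85 ± 0.082 and 2.86 ± 0.11 (SD, n = 3 each), a log2 difference of -0.014 (SE 0.089, 95% interval -0.23 to 0.20, limma adjusted p = 0.997). Lta4h was the gene nearest in profile to Alox5 (distance 0.075, own spread of Alox5 0.14), and its own nearest profile was that of Ptges3, the cytosolic prostaglandin E synthase that also serves as a heat shock protein 90 co-chaperone (0.046, own spread of Lta4h 0.080). Ptges, in turn, was nearest to the phospholipase gene Pla2g4b (0.056), but at no less than its own spread of 0.043, and Ptgs1 was nearest to Ptgr1, a reductase that inactivates leukotriene B4 and prostaglandin metabolites (0.090, own spread of Ptgs1 0.16). These distances describe 6 arrays and 56 candidate genes for each enzyme, and profiles that hardly vary lie close to one another by construction.

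**Figure D3:**
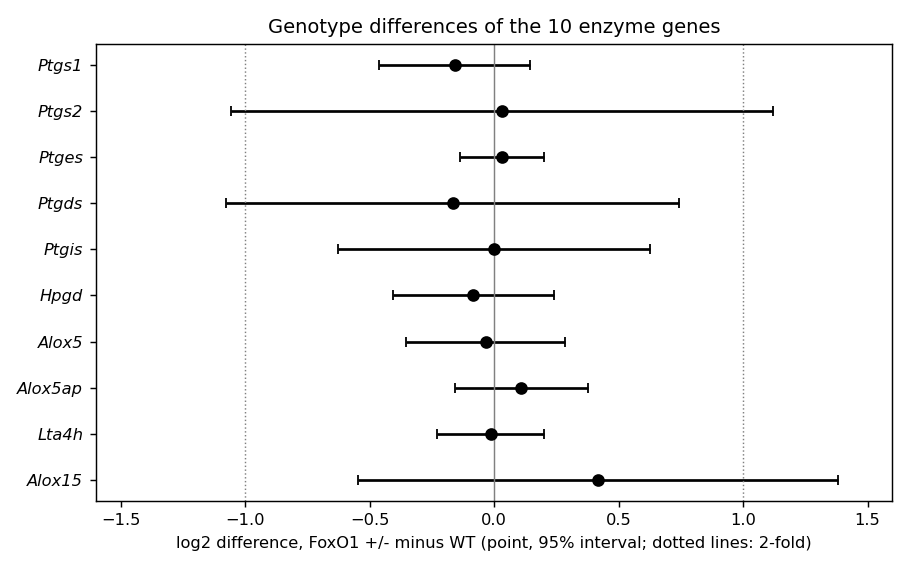
Log2 difference, FoxO1 +/- minus WT, for each enzyme gene (point) with its 95% limma interval (bar), 3 arrays per genotype; dotted lines mark a 2-fold change either way. Every interval includes 0, and those of Ptgs2, Ptgds and Alox15 cross a 2-fold line.

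Alox15 encodes the 12/15-lipoxygenase, which in mice marks eosinophils and resident macrophages and feeds the making of lipoxins and other lipids that wind down inflammation. It had -1.45, -0.79 and -1.68 on the FoxO1 +/- arrays and -1.06, -1.67 and -2.45 on the WT arrays. FoxO1 +/- replicate 2 was the highest and WT replicate 3 the lowest, and the rest interleaved. The means were -1.31 ± 0.46 and -1.72 ± 0.70 (SD, n = 3 each), a log2 difference of 0.42, or 1.33-fold (SE 0.40 log2 units, 95% interval 0.684-fold to 2.60-fold, limma adjusted p = 0.940). This was the farthest from 0 of the 10 differences, yet it moved to 0.055 without WT replicate 3 and to 0.75 without WT replicate 1. Its within-genotype SD of 0.59 was at least as large as that of 96.6% of the genes tested, and its processed signals, 281 to 648 in FoxO1 +/- wounds and 239 to 565 in WT wounds, were above background on every array.

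The eosinophil marker list moved with Alox15. It had 4 of 5 genes tested, Epx, a defining granule enzyme, not being above background. Its mean level was -0.90, -0.53 and -1.21 in FoxO1 +/- wounds and -0.90, -1.14 and -1.66 in WT wounds, which puts the arrays in the same order as Alox15 within each genotype. Its summed linear level was 2.52 to 4.01 in FoxO1 +/- wounds and 1.96 to 3.57 in WT wounds. All 4 genes had positive differences, led by Prg2, which encodes the eosinophil major basic protein (0.94, SE 0.24, limma adjusted p = 0.545). The others were within their SE, with Siglecf at 0.26 (SE 0.30), Ccr3 at 0.11 (SE 0.25) and Il5ra at 0.11 (SE 0.24). All tested genes were also higher in the endothelial, macrophage, mast cell and adipocyte lists (5 of 5 each). All were lower in the sebaceous (5 of 5), hair follicle (4 of 4) and melanocyte (4 of 4) lists. Of all genes tested, 53.9% were higher. The part of eosinophils in the Alox15 values was not tested. Of the pathway genes, Akr1c18, a steroid dehydrogenase of the family that also acts on prostaglandins, was nearest in profile (0.32, own spread of Alox15 0.53).

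**Figure D4:**
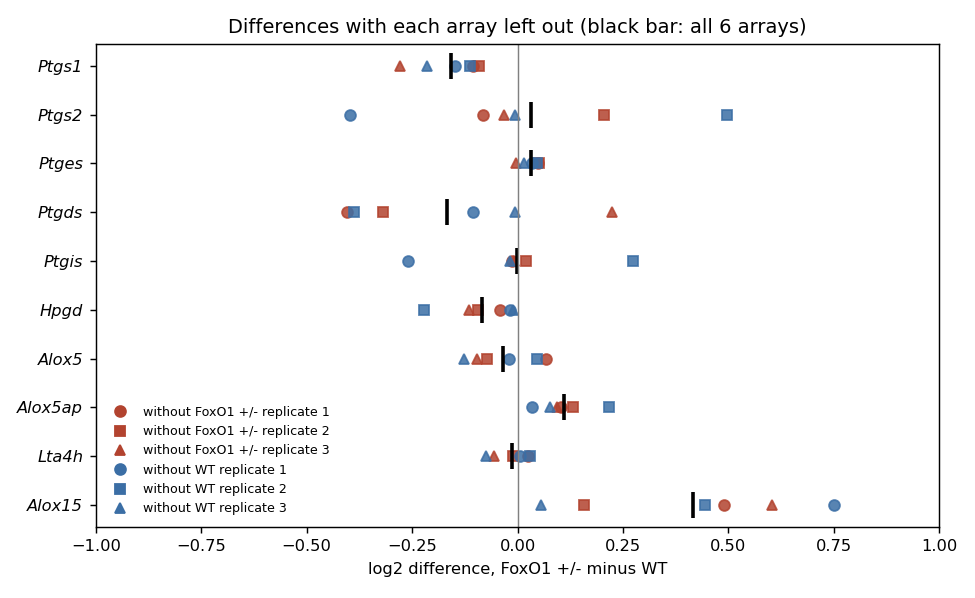
Log2 difference, FoxO1 +/- minus WT, of each enzyme gene with all 6 arrays (black bar) and with each array left out in turn (red symbols for FoxO1 +/- replicates, blue for WT replicates). The differences of Ptgs1, Hpgd, Alox5ap and Alox15 keep their side of 0 in all 6 cases and those of the other 6 genes do not; Ptgs2 runs between -0.40 and 0.50.

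Other genes of the eicosanoid pathway were read in the same fit. A list of 53 genes in 6 groups had a probe for 52, of which 47 were tested. Of these, 26 had a higher mean in FoxO1 +/- wounds and 21 a lower one, with a median of 0.038 and a range between -0.66 and 0.43. With limma, 0 of 47 passed the adjusted threshold (smallest adjusted p = 0.794), 1 had an unadjusted p under 0.05 and 3 had non-overlapping groups (6.38%, against 11.5% of all genes tested). Those 3 were Pla2g4e, lower in FoxO1 +/- wounds, and Ptgr2 and Pla2g12a, a secreted phospholipase named after its value was seen, which were higher. Pla2g4c, Pla2g10, Ggt1 and Alox8 were not well above background in either genotype, and Ptgdr, a prostaglandin D2 receptor gene, was so on 1 WT array alone.

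Upstream of the cyclooxygenases, the group of phospholipases had 5 higher and 7 lower genes of 12 tested (median -0.076). Pla2g4a, the cytosolic phospholipase that releases arachidonic acid on calcium signals, had a difference of 0.043 (SE 0.13). The epidermal family members Pla2g4d and Pla2g4e had 0.43 (SE 0.22) and -0.32 (SE 0.15), and Pla2g4e was lower on all 3 FoxO1 +/- arrays than on any WT array without passing the adjusted threshold, with a difference of -0.15 when FoxO1 +/- replicate 2 was left out. Among other synthases and reductases, 6 were higher and 3 lower of 9 (median 0.035). Hpgds, the haematopoietic prostaglandin D synthase of mast cells and T helper cells, differed by 0.12 (SE 0.16), Tbxas1, the thromboxane synthase, by -0.034 (SE 0.12) and Cbr1, a carbonyl reductase that turns prostaglandin E2 into F2alpha, by -0.14 (SE 0.097).

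Ptgr2, which reduces 15-keto prostaglandins one step after Hpgd, was the single pathway gene with an unadjusted p under 0.05. Its brightest probe gave 1.28, 1.29 and 1.28 in FoxO1 +/- wounds and 1.17, 1.12 and 1.098 in WT wounds. The groups did not overlap, but the difference was 0.16 (SE 0.064, limma adjusted p = 0.794), and the other 2 Ptgr2 probes differed by 0.046 and 0.060. The unadjusted call was lost in 13 of 18 alternatives, among them the mean of the gene's probes, the replicate block and each array left out. With normexp background correction Pla2g4e and Ptgdr2 had an unadjusted limma p under 0.05 as well.

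The receptors bind the products of these enzymes on the cell surface. Of 10 prostanoid receptor and transporter genes, 5 were higher and 5 lower (median 0.054), with Ptger2 at -0.0074 (SE 0.21) and Ptger4 at 0.24 (SE 0.19), both receptors of prostaglandin E2; Ptger4 ran between 0.11 and 0.43 with 1 array left out. The prostacyclin receptor gene Ptgir differed by 0.13 (SE 0.10) and Ptgdr2, the prostaglandin D2 receptor of eosinophils and type 2 lymphocytes, by 0.17 (SE 0.11). Of the 5 leukotriene and lipoxin receptor genes, 2 were higher and 3 lower (median -0.13, a sign that depended on the background correction and on the slide row). Ltb4r1, the high-affinity leukotriene B4 receptor, had 3.37, 3.05 and 3.51 in FoxO1 +/- wounds and 3.05, 3.94 and 3.51 in WT wounds, and differed by -0.19 (SE 0.24). It was highest on WT replicate 2, as Ptgs2 was, and lowest on FoxO1 +/- replicate 2, closely followed by WT replicate 1. The cysteinyl leukotriene receptor genes Cysltr1 and Cysltr2 differed by 0.12 (SE 0.11) and -0.13 (SE 0.096).

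Among leukotriene enzymes beyond the 10, 5 were higher and 2 lower of 7 (median 0.12). Ltc4s, the leukotriene C4 synthase, had 3.32, 2.91 and 3.86 in FoxO1 +/- wounds and 3.38, 4.01 and 3.60 in WT wounds, an overlapping spread with a difference of -0.30 (SE 0.27) that was -0.076 without FoxO1 +/- replicate 2 and -0.55 without FoxO1 +/- replicate 3. Mgst3, a microsomal glutathione transferase with leukotriene C4 synthase activity, differed by 0.19 (SE 0.15), and Dpep1, a dipeptidase that turns leukotriene D4 into E4, by 0.28 (SE 0.19). The other lipoxygenases, 3 higher and 1 lower of 4 (median 0.21), include Alox12b and Aloxe3, which build the lipid barrier of the epidermis. Alox12b had 1.02, 0.99 and 1.48 in FoxO1 +/- wounds and 1.02, 0.64 and 0.73 in WT wounds, a difference of 0.36 (SE 0.17), and WT replicate 1 lay within the FoxO1 +/- values. Aloxe3 differed by 0.29 (SE 0.20) and Alox12, the platelet-type enzyme, by 0.13 (SE 0.19). Dimmer second probes gave -0.145 (SE 0.19) for Alox12, the opposite sign, and 0.12 (SE 0.14) for Alox12b. With the mean of a gene's probes, the median of this group was 0.12.

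**Figure D5:**
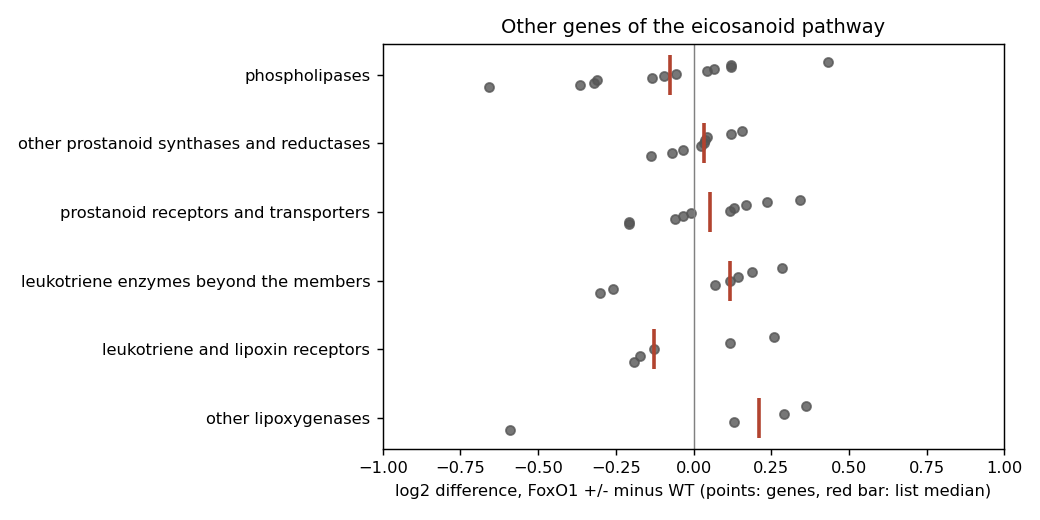
Log2 difference, FoxO1 +/- minus WT, of the 47 other pathway genes tested (grey points) in their 6 groups, with the group median as a red bar; 3 arrays per genotype. The points lie between -0.66 and 0.43, on both sides of 0 in every group.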

How the data were processed

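Total RNA of day 3 wounds from 6 mice was labelled with Cy3, 200 ng per array, per the labels' protocols. The deposited scanner files hold spot intensity on a linear scale, background-subtracted and spatially detrended by Agilent Feature Extraction 10.7.1.1 per the file headers (9.1 per the submitters' processing notes) and not scaled between arrays. All arrays lay on 1 slide and 1 scan. Slide row 1 held FoxO1 +/- replicate 1 and the 3 WT arrays, and row 2 held FoxO1 +/- replicates 2 and 3 alone. Genotype and slide row therefore cannot be fully told apart. From these, log2 processed signals were averaged over spots without outlier flags, and each array's 75th percentile was subtracted. Probes well above background on all arrays of at least 1 genotype were kept, a gene was read from its brightest kept probe, and 16408 genes were fitted with limma 3.58.1 in R 4.3.3 (lmFit, eBayes, two-sided, Benjamini-Hochberg over all genes), FoxO1 +/- minus WT. The fit was tested on simulated data. An exact permutation test of 3 against 3 arrays cannot go below 0.1, so single values rest on limma. Symbols came through RefSeq accessions without versions (GRCm38.p6 table; the array design uses an earlier build). The number of arrays limits the precision. The deposited value table, equal to the processed intensity within 0.5%, was used as an alternative.

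The 10 genes, the pathway and marker lists and the alternatives were chosen with earlier results of these data known. Genes named are the 10, and from each pathway group the 2 smallest limma p-values plus Pla2g4a, Ptger2, Ptger4, Ltc4s, Hpgds, Tbxas1, Ltb4r1, Alox12 and Alox12b, the nearest profile of each enzyme, Foxo1, and list markers. Alternatives were normexp background correction, quantile and median scaling, probe filters, probe averaging, the deposited value table, a replicate block, slide row, array weights, an intensity trend and leaving out each array. The files hold no mean signal, so normexp (offset 50) used the median signal. Same-numbered replicates did not deviate together (correlations of -0.068, -0.14 and -0.30 between genotypes), so the numbers were not taken as pairs.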

Additional observations from a re-analysis of the deposited data

How the results depend on the processing

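Over 18 alternatives, the 10 enzymes and 20 other named pathway genes gave 540 differences, of which 494 kept their direction, 46 reversed and 0 passed the adjusted threshold (smallest adjusted p among the enzymes 0.481); the cause of the reversals was not tested. Genes of all 16408 with a limma adjusted p under 0.05, 1 as reported, numbered 0 with normexp, with a filter of all 6 arrays, with the replicate block and with an intensity trend, 2 with quantile scaling, 3 with no filter, 4 with array weights and within slide row 1, 5 with median scaling and 7 with slide row as a block, and 0 to 30 with 1 array left out (30 without WT replicate 2). Genes with an unadjusted p under 0.05, 1032 as reported, numbered 481 with slide row as a block, 508 within row 1 and 681 to 1500 with 1 array left out. With the replicate block the unadjusted count was 795 and Ptgr2 lost its unadjusted p under 0.05 (0.143), while the enzymes gained and lost no call; same-numbered arrays share only a number. Across the 18 alternatives Ptgr2 had an unadjusted limma p under 0.05 in 5 and not in 13.

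Of the enzymes, 0 to 2 had an unadjusted limma p under 0.05 with 1 array left out: Alox5ap (0.0349) and Hpgd (0.0394) without WT replicate 2, and Ptgs1 (0.0313) without FoxO1 +/- replicate 3. The median of leukotriene and lipoxin receptors, -0.13 as reported, was 0.073 with normexp, 0.015 both within row 1 and with the row as a block, 0.019 with array weights, and -0.20 to 0.028 with 1 array left out. Reversed differences with normexp were Cysltr2 0.073, Pla2g4a -0.0054 and Ptger2 0.0033; with quantile scaling Ptges -0.047 and Alox5ap -0.00063; with the mean of a gene's probes Alox12 -0.0070. Blocking on slide row and fitting row 1 alone gave the same reversed values, Ptges -0.00048, Ptgds 0.31, Ptgis 0.027, Cysltr2 0.015, Pla2g4a -0.021 and Tbxas1 0.054, which rest on FoxO1 +/- replicate 1 alone. With array weights they were Ptgis 0.11, Alox5 0.0019, Lta4h 0.0011, Ptger2 0.090 and Alox12 -0.024. With 1 array left out, Ptgs2 ran between -0.40 and 0.50, Ptges between -0.0038 and 0.052, Ptgds between -0.40 and 0.22, Ptgis between -0.26 and 0.27, Alox5 between -0.13 and 0.068 and Lta4h between -0.076 and 0.029. Likewise Pla2g4a ran between -0.035 and 0.15, Ptger2 between -0.22 and 0.20, Hpgds between -0.0057 and 0.24, Tbxas1 between -0.13 and 0.056, Ltb4r1 between -0.42 and 0.028 and Alox12 between -0.042 and 0.23. Leaving out 1 array moved the difference by over 1.5 times for 29 of the 30 named genes, the exception being Ptgr2. Among pathway genes that kept their sign, the ranges were -0.55 to -0.076 for Ltc4s, -0.40 to -0.15 for Pla2g4e, 0.28 to 0.61 for Pla2g4d, 0.11 to 0.43 for Ptger4, 0.12 to 0.46 for Dpep1, 0.20 to 0.48 for Alox12b and 0.14 to 0.42 for Aloxe3, and for Cbr1, Ptgdr2, Ptgir, Mgst3, Cysltr1 and Cysltr2 all values lay within -0.20 and 0.32. The 3 arrays per genotype limit precision most for Ptgs2, Ptgds and Alox15.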

Other observations

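Several genes were higher in WT replicates 1 and 3 than in the other 4 wounds by their brighter or single probe. They were Alox12e, Pla2g5, Pla2g2d, Pla2g2e, Pla2g4e and Cbr1 of the pathway lists, and the enzyme gene Hpgd. All but Pla2g4e, Cbr1 and Hpgd were named after their values were seen. The values of Alox12e and Pla2g5 are given here. Alox12e, the mouse epidermal 12-lipoxygenase, had 2.32, 2.26 and 2.41 in FoxO1 +/- wounds and 3.10, 1.996 and 3.67 in WT wounds, and differed by -0.59 on the log2 scale (SE 0.40, adjusted p = 0.900 by limma). Pla2g5, a secreted phospholipase, had -1.05, -1.05 and -1.05 in FoxO1 +/- wounds and -0.04, -1.20 and 0.06 in WT wounds, and differed by -0.66 (SE 0.33, adjusted p = 0.839 by limma). A second, much dimmer Pla2g5 probe did not follow this, with -4.16, -4.11 and -3.85 in FoxO1 +/- wounds and -3.76, -3.76 and -3.97 in WT wounds. The hair follicle marker Lhx2 had -1.50, -1.79 and -1.68 in FoxO1 +/- wounds and 0.70, -1.41 and 0.42 in WT wounds. The sebaceous marker Krt79 had 5.05, 4.96 and 5.04 in FoxO1 +/- wounds and 6.83, 5.73 and 6.62 in WT wounds. The sebaceous list as a whole (5 of 5 tested) had mean levels of 1.503, 1.61 and 1.47 in FoxO1 +/- wounds and 2.20, 1.86 and 2.33 in WT wounds, but Soat1, Mc5r and Scd1 in it did not have both WT replicates 1 and 3 above the other 4 arrays. The hair follicle list (4 of 5 genes tested) summed to 0.92, 0.81 and 0.84 in linear units in FoxO1 +/- wounds and to 34.3, 0.95 and 2.32 in WT wounds. Krt71 alone made 30.4 of the 34.3 on WT replicate 1, and 2 of the 4 genes were well above background on all 6 arrays. The melanocyte list (4 of 4 tested) had mean levels of -1.12, -1.01 and -1.72 in FoxO1 +/- wounds and -0.11, -1.20 and 0.34 in WT wounds. Each of its genes was higher in WT replicates 1 and 3 than in the other 4 wounds. The part of hair follicle cells, sebaceous cells and melanocytes in the levels of Alox12e and Pla2g5 was not tested.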
